A study of Arabidopsis thaliana with 12 samples.

Results

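Of 10 morning genes of the circadian clock, 6 rose and 1 fell with paraquat in roots of Arabidopsis thaliana, in wild type and in the libraries labelled trm4b-1 alike, and the remaining 3 were not listed. Among all tested genes 7.99% rose and 9.01% fell in wild type, and 4.72% rose and 4.33% fell in the libraries labelled trm4b-1. The 10 genes described here are CCA1 (AT2G46830), LHY (AT1G01060), PRR9 (AT2G46790), PRR7 (AT5G02810), RVE1 (AT5G17300), RVE2 (AT5G37260), RVE7 (AT1G18330), RVE8 (AT3G09600), LNK1 (AT5G64170) and LNK2 (AT3G54500), out of 33602 genes tested. They were chosen by gene identifier as morning genes of the clock, with their fold changes in these comparisons already known. Their values are therefore a description and support nothing by themselves. Of the 10 genes, 7 are listed in at least 1 of the authors' 5 tables of comparisons, and PRR7, RVE1 and RVE7 are in none.

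RNA came from roots of seedlings harvested 6 days after germination, which had grown on half-strength Murashige and Skoog plates. All plants were of cultivar Col-0, either wild type (WT) or labelled trm4b-1, and were raised either on plain medium (control) or on medium holding 0.01 uM paraquat. Paraquat is a herbicide that drives the formation of superoxide in cells. Each of the 4 groups had 3 replicates, biological ones by the submitters' account, 12 samples in all. The labels state neither how the trm4b-1 allele alters its gene nor the time of day of harvest. The tables hold no values per sample and no expression levels, so the depth behind each gene is unknown and the root markers of the samples could not be checked. Each result below is therefore a difference between group means. RNA of TRM4B itself (AT2G22400), the gene the mutant is named for, was raised in the libraries labelled trm4b-1, by 2.89 ± 0.08 on control medium and 3.90 ± 0.08 on paraquat in the authors' deposited table. A value written with ± is a log2 fold change with a standard error computed from the deposited p. A gene is said to have risen, fallen or changed where its adjusted p in the authors' limma fit was under 0.05, and a table lists genes down to an adjusted p of 0.1.

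The plant clock is a network of transcription factors that repress and activate each other in turn over the day. CCA1 and LHY are closely related MYB repressors made around dawn that shut off evening genes such as TOC1. PRR9 and PRR7 are pseudo-response regulators that follow through the day and repress CCA1 and LHY. The REVEILLE proteins share the MYB domain of CCA1 and LHY. RVE8 activates evening genes, helped by the LNK proteins, which are transcriptional coactivators without a DNA-binding domain, while RVE1, RVE2 and RVE7 act mainly on clock outputs. CCA1, LHY and RVE8 bind the evening element, and many light-regulated genes carry a G-box, the site of bHLH and bZIP factors.

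The stretches around the gene starts are shown first, because a G-box was found there in most of the 10 genes. In windows of 250 bases before to 50 bases after the start annotated by RefSeq on TAIR10.1, 9 of the 10 genes held a G-box, CACGTG, with 10 matches in all. The motif reads the same on both strands and was found in 7.68% of 27443 promoters of protein-coding genes searched in the same way. Each line gives 30 bases 5′ to 3′ on the strand of the gene, with the G-box in capitals.
CCA1 (chr2:19245386-19245415, plus strand): tagtgtatcagaCACGTGtcgacaaactgg
LHY (chr1:37934-37963, minus strand): ctacaatatcacCACGTGtcgatctgcgat
PRR9, distal site (chr2:19232351-19232380, plus strand): acaatagaaaccCACGTGtcatccacatga
PRR9, proximal site (chr2:19232423-19232452, plus strand): ttaggttaatgaCACGTGttaaggtggacc
PRR7 (chr5:642214-642243, minus strand): tacccaccattaCACGTGtcagttcaaaaa
RVE1 (chr5:5693086-5693115, minus strand): gagaaagagcgaCACGTGgcaaagatggac
RVE2 (chr5:14753234-14753263, minus strand): gaagaaatcctcCACGTGtcattagcatct
RVE8 (chr3:2946238-2946267, plus strand): actacaagtctaCACGTGcttcaagcttga
LNK1 (chr5:25676808-25676837, minus strand): tgatttagttgcCACGTGttgatatcatgg
LNK2 (chr3:20179029-20179058, minus strand): ccactcgtttggCACGTGaccatttcatac

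The first base of the G-box lay 193 bases before the start of CCA1, 80 before that of LHY, 244 and 172 before that of PRR9, 201 before that of PRR7, 111 before that of RVE1 and 163 before that of RVE2. In LNK1 the match began 2 bases before the start, and in RVE8 and LNK2 it began at bases 12 and 25 of the transcript. The first exons in the authors' tables begin further downstream in 5 of the 7 listed genes, and measured from those exons the nearest G-box of all 7 was upstream, by 19 bases in LNK2 up to 274 bases in CCA1. In CCA1, LHY, PRR9, PRR7, RVE1 and RVE2 a G-box was followed by TC on one strand or the other. This longer form, picked after the windows had been read, was found in 2.45% of the promoters. The G-box was found in 9.2% of the promoters of genes that rose in WT and 8.02% of those that fell, and in 12.5% and 7.7% for the libraries labelled trm4b-1. Of 28 other clock genes, described below, 5 held a G-box in the same window. Among these, LUX and BOA fell with paraquat in WT, LNK3 rose, and AT1G01520 and AT4G01280 were not listed. RVE2, the morning gene that fell, held a G-box as well.

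The other motifs were each found in 3 or fewer of the 10 windows. The evening element, AAATATCT on either strand, was found in PRR9 and RVE7 and in 5.65% of all promoters, and the CCA1 binding site, AAAAATCT, in RVE2 alone among the 10 genes and in 7.88%. The LUX binding site was found in LNK2 as GATACG (5.54% of promoters) and in PRR9 as GATTCG (9.58%), and the morning element CCACAC in LHY (7.77%). The HUD element, CACATG, was found in PRR9, RVE2 and LNK2 and in 12.9% of promoters. The evening elements are shown in capitals, with that of the evening gene TOC1 for comparison. In PRR9 and TOC1 the capitals are the reverse complement of the motif as written above.
PRR9 (chr2:19232622-19232651, plus strand): tttctctgagaAGATATTTtcgtggttgtg
RVE7 (chr1:6308274-6308303, minus strand): taatcacaaaaAAATATCTtcttcataatt
TOC1 (chr5:24674801-24674830, plus strand): taaatatcatgAGATATTTtctccaagatg
RVE7, the only one of the 10 genes with no G-box in its window, had the evening element 49 bases before its start. A match is a stretch of letters and shows no binding.

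**Figure D1:**
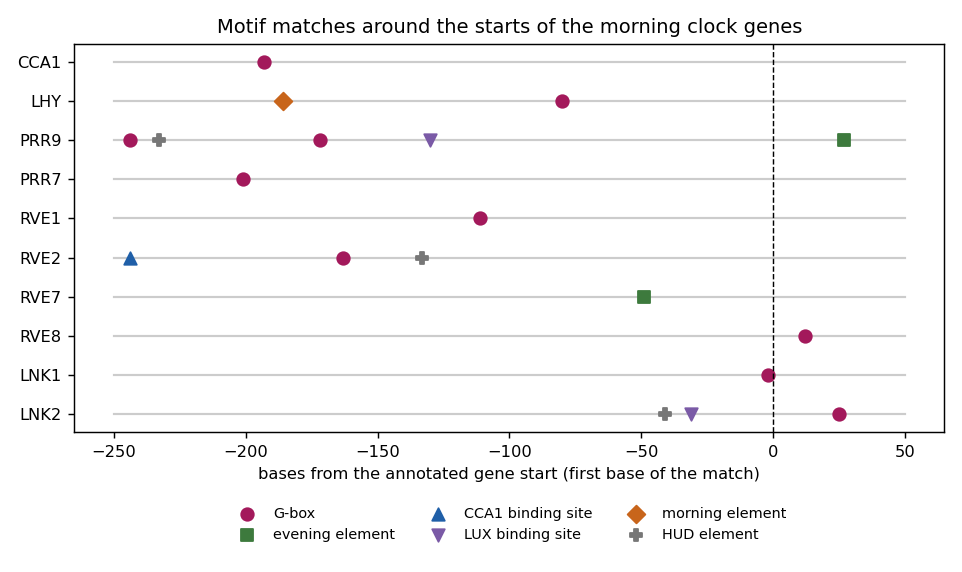
Motif matches in the windows around the starts of the 10 morning genes. The horizontal axis is the distance in bases of the first base of a match from the annotated start (dashed line), grey lines are the windows searched, and each symbol is a match of a named motif. The G-box is in all rows but that of RVE7, and most of its matches lie before the start.

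The 250 bases before the starts of CCA1 and LHY are printed whole, because these close relatives moved together with paraquat. The G-box is in capitals.
CCA1 (chr2:19245341-19245590, plus strand): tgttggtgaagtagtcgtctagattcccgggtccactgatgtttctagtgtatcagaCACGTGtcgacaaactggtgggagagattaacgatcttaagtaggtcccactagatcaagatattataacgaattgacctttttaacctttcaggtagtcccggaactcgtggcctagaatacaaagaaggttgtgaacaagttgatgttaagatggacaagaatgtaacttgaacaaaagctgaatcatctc
LHY (chr1:37872-38121, minus strand): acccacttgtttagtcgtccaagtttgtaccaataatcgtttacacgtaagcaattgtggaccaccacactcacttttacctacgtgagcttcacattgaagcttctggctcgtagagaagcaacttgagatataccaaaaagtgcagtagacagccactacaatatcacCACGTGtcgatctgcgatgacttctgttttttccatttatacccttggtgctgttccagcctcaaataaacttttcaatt
Neither stretch held an evening element or a CCA1 binding site, and LHY alone of this pair held the morning element, 186 bases before its start.

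The change with paraquat in wild-type roots came from the comparison of both WT groups. The labels give no hour of harvest for either group, and its part in these changes was not tested. Of the 10 genes, 6 rose (CCA1, LHY, PRR9, RVE8, LNK1 and LNK2), against 7.99% of all tested genes. RVE2 alone fell, against 9.01% of all tested genes. Since these comparisons were known when the genes were picked, nothing is read from the difference to those shares. The 7 changes had a median of 1.49.

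The 9 exons of CCA1, 2344 bases together, span 19245672 to 19248914 on the plus strand of chromosome 2 (TAIR10, as are the spans that follow). It rose by 2.16 ± 0.18 in WT in the authors' deposited table, which is 4.47-fold (adjusted p = 1.26e-06, 95% interval from 1.77 to 2.55). LHY, the partner of CCA1 in repressing evening genes, lies on chromosome 1 (33379 to 37871, minus strand, 10 exons with 3234 bases). It rose by 1.49 ± 0.17 in the authors' deposited table, or 2.81-fold (adjusted p = 2.60e-05). The interval of LHY, from 1.12 to 1.86, overlapped that of CCA1.

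Of the day-phase repressors, PRR9 rose and PRR7 was not listed. PRR9, on chromosome 2 (19232649 to 19235087, plus strand, 7 exons with 1826 bases), had the highest value of the 7 listed genes in WT, 2.22 ± 0.19 in the authors' deposited table, or 4.65-fold (adjusted p = 1.27e-06). For PRR7, RVE1 and RVE7 the absence from the table gives only that their p was above 0.0216, the largest p listed. Whether they changed less or were measured less precisely was not tested.

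RVE8, the evening gene activator, lies on chromosome 3 (2946406 to 2948995, plus strand, 9 exons with 1424 bases). It rose by 1.36 ± 0.15 in WT in the authors' deposited table, or 2.57-fold (adjusted p = 1.85e-05). Its coactivators rose as well. LNK2, on chromosome 3 (20175370 to 20179027, minus strand, 6 exons with 2769 bases), rose by 1.79 ± 0.11 in the authors' deposited table, or 3.46-fold. With an adjusted p of 8.19e-08 in the authors' deposited table it was 34th by p of the 7253 genes listed, ahead of the other 9 genes. LNK1, on chromosome 5 (25672466 to 25676746, minus strand, 8 exons with 2590 bases), rose by 1.38 ± 0.12 in the authors' deposited table, or 2.61-fold (adjusted p = 1.89e-06).

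RVE2 went the other way. This MYB gene, also named CIR1, lies on chromosome 5 (14751344 to 14753088, minus strand, 5 exons with 980 bases). In WT it had -0.97 ± 0.18 in the authors' deposited table, which is 1.96-fold lower (adjusted p = 0.00126). RVE2 was the one of the 7 listed genes whose interval, from -1.35 to -0.59, did not overlap that of its neighbour in the order of changes. Down that order, PRR9, CCA1, LNK2, LHY, LNK1 and RVE8, the intervals of each pair of neighbours overlapped.

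**Figure D2:**
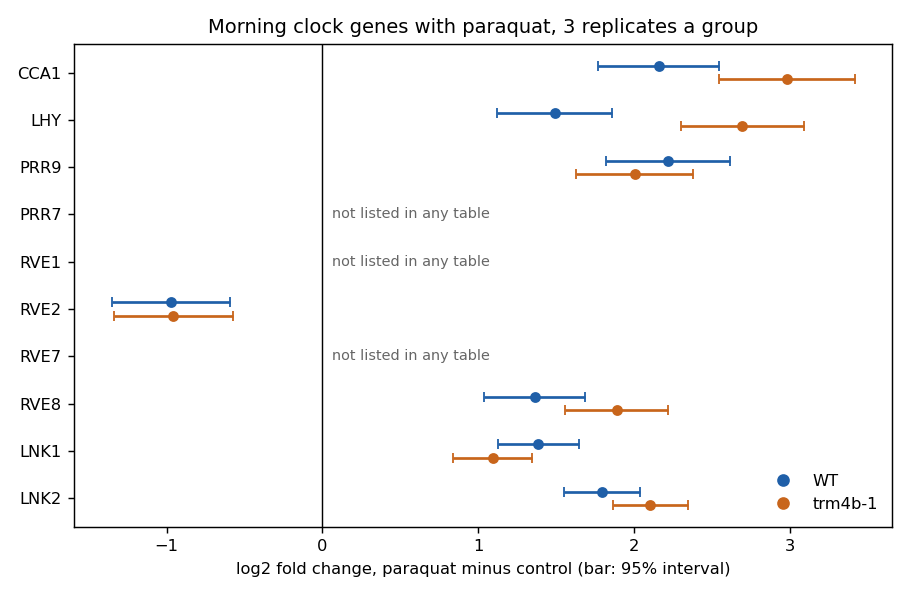
Change of each morning gene with paraquat, as the log2 fold change of paraquat minus control on the horizontal axis, in WT (blue) and in the libraries labelled trm4b-1 (orange). Points are the deposited values, bars are 95% intervals from the recovered standard errors, and each group had 3 replicates. CCA1, LHY, PRR9, RVE8, LNK1 and LNK2 lie right of 0 in both comparisons and RVE2 left of 0 in both.

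The same comparison was made within the libraries labelled trm4b-1, which share no sample with the WT comparison. Both comparisons do share the estimate of the spread in the authors' limma fit, and the hour of harvest is not stated for these groups either. The 7 genes that changed in WT changed here too, each in the same direction. Of the 10 genes 6 rose, against 4.72% of all tested genes, and RVE2 fell, against 4.33%. The median of the 7 changes was 2.00. PRR7, RVE1 and RVE7 were again not listed, so that their p was above 0.0122.

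CCA1 and LHY had the largest values of the 7 listed genes in the libraries labelled trm4b-1. CCA1 rose by 2.98 ± 0.21 in the authors' deposited table, or 7.90-fold, and LHY by 2.70 ± 0.18, or 6.48-fold (adjusted p = 1.43e-07 for each). LNK2 followed with 2.104 ± 0.11 in the authors' deposited table, or 4.30-fold (adjusted p = 1.67e-08), and it was 13th by p of the 4087 genes listed. PRR9 had 2.00 ± 0.18 in the authors' deposited table, or 4.01-fold (adjusted p = 1.88e-06). RVE8 had 1.89 ± 0.16 in the authors' deposited table, or 3.70-fold (adjusted p = 9.66e-07). The intervals of neighbours overlapped down to RVE8, and LNK1 stood apart below it with 1.09 ± 0.12 in the authors' deposited table, or 2.13-fold (adjusted p = 1.59e-05). RVE2 had -0.96 ± 0.18 in the authors' deposited table, which is 1.94-fold lower (adjusted p = 0.00237).

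Whether the change with paraquat differed by genotype was asked by the interaction, the change in the libraries labelled trm4b-1 minus that in WT. No morning gene passed in it, against 0.318% of all tested genes. LHY came nearest and is the one of the 10 that is listed, with 1.21 ± 0.25 in the authors' deposited table (p = 0.000242, adjusted p = 0.0587). The deposited Storey q-value of LHY was 0.0354 in the authors' deposited table, so that it would pass by that measure. As an estimate, which did not pass by adjusted p, the difference is a rise of LHY 2.31-fold larger in the libraries labelled trm4b-1. Its 95% interval ran from 0.67 to 1.75 on the log2 scale.

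For the other listed genes the difference was rebuilt from both paraquat values of the authors' deposited tables. It was 0.82 ± 0.27 for CCA1 (95% interval from 0.24 to 1.41) and 0.53 ± 0.22 for RVE8 (from 0.06 to 0.99). These intervals leave out 0, but neither gene is listed, which puts its adjusted p over all genes at 0.1 or above. LNK2 had 0.31 ± 0.16, and its interval from -0.03 to 0.66 took in 0. PRR9 had -0.22 ± 0.26 (from -0.76 to 0.33) and LNK1 -0.29 ± 0.17 (from -0.65 to 0.07), the only genes of the 7 with a value below 0. For RVE2 the rebuilt difference was 0.01 ± 0.25, with an interval from -0.52 to 0.55.

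**Figure D3:**
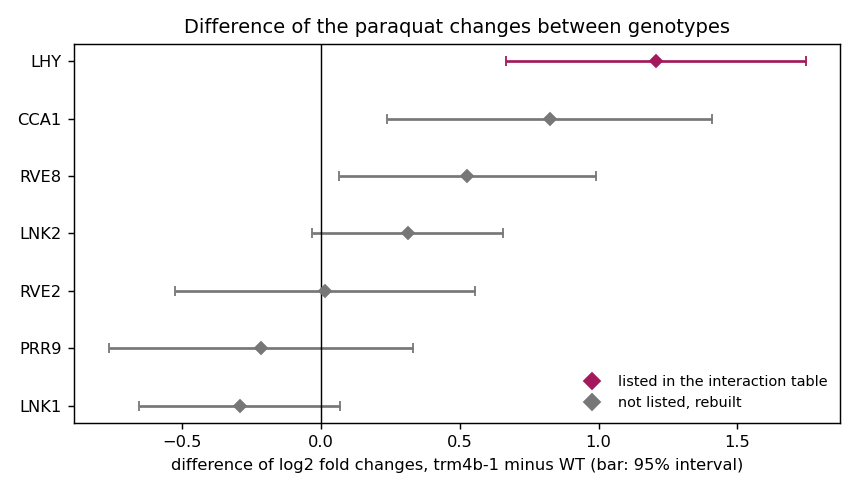
Difference between the paraquat changes, as log2 fold change in the libraries labelled trm4b-1 minus that in WT on the horizontal axis, for the 7 listed morning genes. Bars are 95% intervals without adjustment over genes, and the value of LHY (red) is also in the deposited interaction table. LHY, CCA1 and RVE8 have intervals that leave out 0, and PRR9 and LNK1 lie left of 0.

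Neither genotype comparison listed a morning gene. On control medium, where 2.03% of all tested genes changed between the libraries labelled trm4b-1 and WT, 0 of the 10 changed, and on paraquat, where 0.143% changed, 0 of the 10 changed either. By limma as deposited, none of the 10 had an adjusted p under 0.1 or a p as low as the largest listed, 0.00364 on control medium and 0.000202 on paraquat. How many were under an unadjusted p of 0.05 is not known from tables that stop there. The variance of the interaction is the sum of the variances of both genotype contrasts, which bounds them for the 7 listed genes. The estimated genotype difference on control medium could have been no larger in size than 0.55 for LNK2 and 0.94 for CCA1, the ends of the range. On paraquat the bounds ran from 0.78 for LNK2 to 1.33 for CCA1. These bounds are ceilings on the estimates, since they use the whole variance of the interaction, and a smaller estimate could also have been listed. They set no limit on the true difference, which sampling error could place beyond them.

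The rest of the clock was followed in a list of 28 other clock genes. With paraquat 13 of these fell and 2 rose in WT, against 9.01% and 7.99% of all tested genes. In the libraries labelled trm4b-1, 10 fell and 2 rose, against 4.33% and 4.72%. The list was chosen with earlier results of these data known, so nothing is read from the difference to those shares. All 12 genes called in the libraries labelled trm4b-1 were called in the same direction in WT. TOC1, the evening repressor of CCA1 and LHY, fell by 1.85 ± 0.10 in WT and fell by 1.77 ± 0.10 in the libraries labelled trm4b-1 in the authors' deposited table. ELF4, a part of the evening complex that represses PRR9, fell by 3.54 ± 0.23 and fell by 3.12 ± 0.22 in the authors' deposited table. LUX, the DNA-binding part of that complex, fell by 1.88 ± 0.13 and fell by 1.67 ± 0.13 in the authors' deposited table.

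FKF1, a blue light receptor with an F-box, fell by 3.77 ± 0.23 and fell by 4.17 ± 0.29 in the authors' deposited table. PRR5, the pseudo-response regulator that follows PRR7 in the day, fell by 1.65 ± 0.12 and fell by 1.93 ± 0.13 in the authors' deposited table. The 2 genes of the list that rose are the remaining members of the LNK family, named here after their values were seen. LNK3 rose by 2.88 ± 0.28 in WT and by 2.56 ± 0.26 in the libraries labelled trm4b-1, and LNK4 by 1.63 ± 0.19 and by 1.52 ± 0.18 in the authors' deposited table. All 4 LNK genes thus rose in both comparisons. RVE4, the closest relative of RVE8, and the related MYB genes AT1G01520, AT4G01280 and AT5G52660 were not listed. None of the 28 genes was listed in the interaction or in either genotype comparison.

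**Figure D4:**
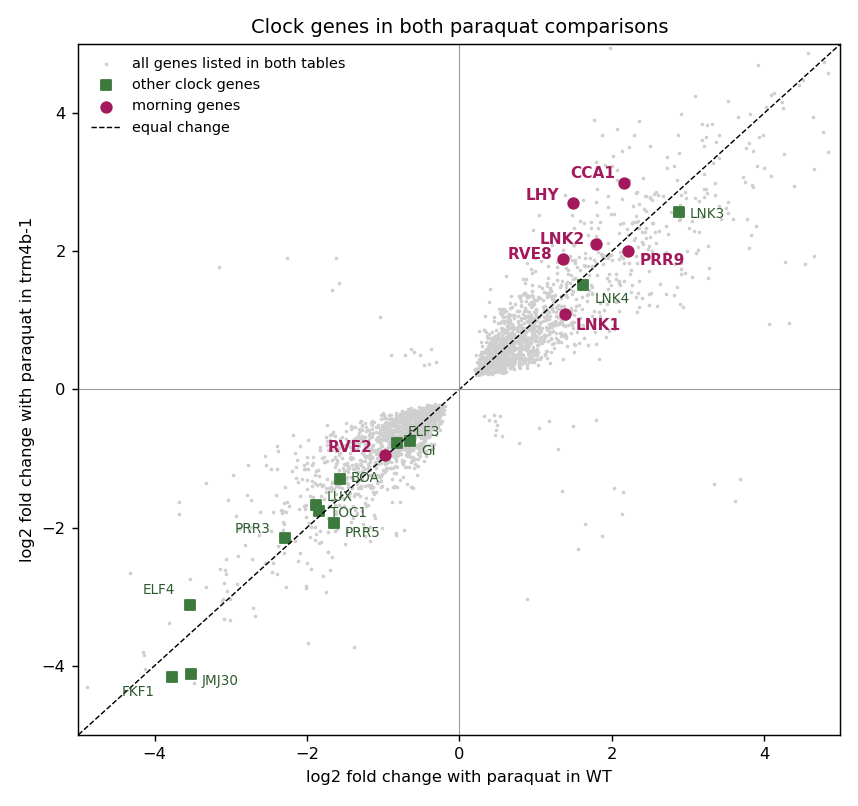
Change with paraquat in WT (horizontal axis) against that in the libraries labelled trm4b-1 (vertical axis), both as log2 fold changes, for the morning genes (red circles), other clock genes (green squares) and all 2887 genes listed in both tables (grey, 38 of them outside the axes). The empty band around 0 arises because small changes are not listed. The listed morning genes other than RVE2 lie at the upper right with LNK3 and LNK4, and the other clock genes that fell lie at the lower left.

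The evening element was found in the windows of 7 of the 28 other clock genes, namely TOC1, PRR5, ELF4, LUX, BOA, FKF1 and JMJ30. All 7 fell with paraquat in WT and in the libraries labelled trm4b-1. Of the 21 without a match 6 fell in WT, and PRR3, ELF3 and GI fell in the libraries labelled trm4b-1. The shares of all tested genes that fell were 9.01% and 4.33%. Because the list was chosen with earlier results of these data known, nothing is read from these counts. Of the morning genes with an evening element, PRR9 rose in both comparisons and RVE7 was not listed. Over the whole genome the evening element was found in 9.12% of promoters of genes that fell in WT and in 5.04% of those that rose. In the libraries labelled trm4b-1 these shares were 13.5% and 5.25%, beside 5.65% of all promoters. These shares are a description of the lists and no test was made of them.

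Among 11 clock output genes, 3 rose and 6 fell in WT, against 7.99% and 9.01% of all tested genes. In the libraries labelled trm4b-1, 4 rose and 4 fell, against 4.72% and 4.33%. GRP7, an RNA-binding protein gene that peaks in the evening, fell by 1.98 ± 0.15 and fell by 1.94 ± 0.15 in the authors' deposited table. COR27, a cold-regulated gene of the afternoon, fell by 3.81 ± 0.35 and fell by 3.38 ± 0.34, and AT4G33980 had -3.48 ± 0.29 and -4.25 ± 0.35 in the authors' deposited table. CDF3, a DOF transcription factor gene expressed early in the day, rose by 0.98 ± 0.11 and by 1.12 ± 0.11 in the authors' deposited table. The outputs thus held genes of either direction.

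Of 14 light and sugar input genes, 1 rose and 6 fell in WT, against 7.99% and 9.01% of all tested genes. In the libraries labelled trm4b-1, 1 rose and 1 fell, against 4.72% and 4.33%. Nothing is read from the difference to those shares, since this list too was chosen with earlier results known. BZIP63, a bZIP factor of energy signalling known to act on PRR7, fell in both comparisons, with -1.398 ± 0.16 in WT and -1.29 ± 0.16 in the libraries labelled trm4b-1 in the authors' deposited table. The blue light receptor genes CRY1 and CRY2 fell by 0.44 ± 0.08 and fell by 0.34 ± 0.09, respectively, in WT in the authors' deposited table. HY5, a bZIP factor of light signalling that binds the G-box, fell by 0.56 ± 0.14 in WT in the authors' deposited table. Besides BZIP63, the red light receptor gene PHYB changed in the libraries labelled trm4b-1, by 0.31 ± 0.09 in the authors' deposited table.

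**Figure D5:**
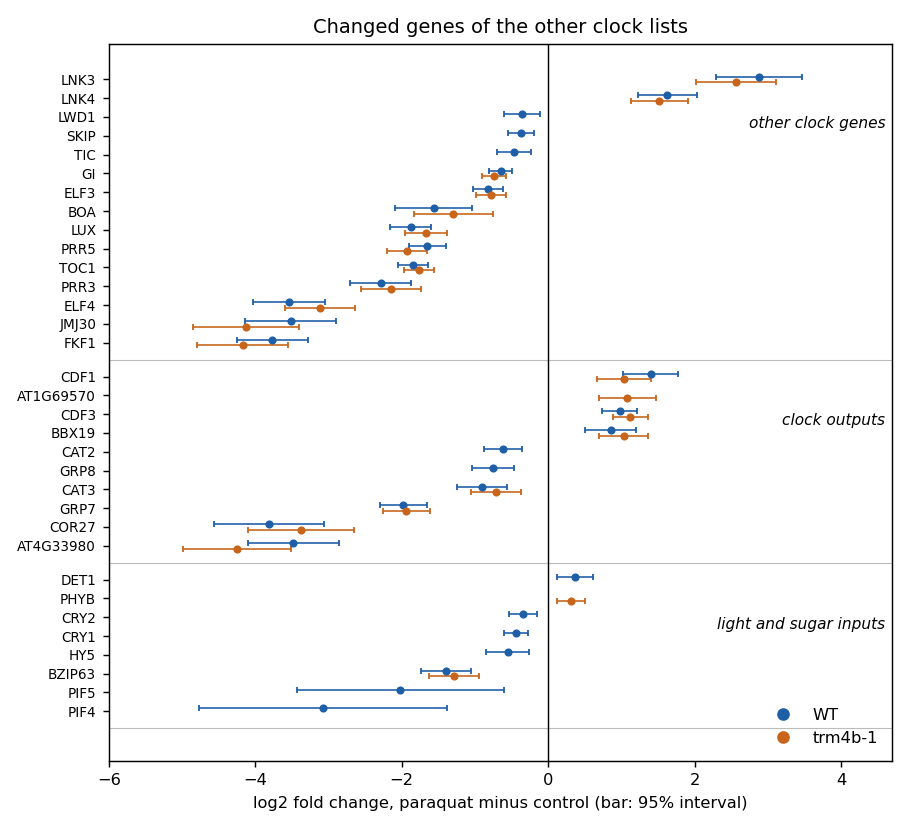
Changed genes of the lists of other clock genes, clock outputs and light and sugar inputs, as log2 fold change of paraquat minus control in WT (blue) and in the libraries labelled trm4b-1 (orange), with 95% intervals. A point is drawn only where the gene changed in that comparison. LNK3 and LNK4 stand right of 0 above 13 clock genes left of 0.

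Shoot tissue carried along in a root harvest would show in photosynthesis genes. These fell with paraquat in WT in 19 of 24 cases, against 9.01% of all tested genes, and none rose, against 7.99%. PSAF, a subunit of photosystem I, had -1.73 ± 0.20 and the antenna gene LHCB1.3 -2.79 ± 0.42 in the authors' deposited table. On control medium 2 of the 24 were lower in the libraries labelled trm4b-1 than in WT, and none was higher. The share of all tested genes that changed there, in either direction, was 2.03%. Within the libraries labelled trm4b-1, on paraquat against control, 2 of the 24 fell and 1 rose, namely PSAN with -0.68 ± 0.15, PSAF with -0.75 ± 0.21 and LHCB2.1 with 1.87 ± 0.53 in the authors' deposited table. In that comparison 4.33% of all tested genes fell and 4.72% rose. The part of shoot tissue in the values of the morning genes was not tested. In bulk samples fewer cells of a type and less RNA per cell cannot be told apart.

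CCA1 and PRR9 lie close together on chromosome 2, with 3 annotated genes in the 10411 bases between them. Of these, AT2G46800 had -0.41 ± 0.08 and AT2G46820 -0.85 ± 0.21 in WT in the authors' deposited table, both lower, and AT2G46810 was not listed. None of the 3 was listed in the libraries labelled trm4b-1. None of the genes between CCA1 and PRR9 was thus called higher with paraquat. PRR7 lies 6617 bases from RVE4 on chromosome 5, with 4 annotated genes between. One of these, AT5G02830, rose in the libraries labelled trm4b-1, by 0.72 ± 0.15 in the authors' deposited table, while PRR7 and RVE4 were not listed. Annotated genes overlap LNK1 (AT5G64160, 245 bases), LNK2 (AT3G54490, 93 bases, and AT3G08405, 266 bases) and RVE1 (AT5G17305, 225 bases). None of these 4 is listed in any table, and how shared reads were counted is not stated.

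LHY was the member listed in most tables, in 3 of 5, and was compared with the 95 other genes listed in the same 3 by the Euclidean distance between their log2 fold changes. The nearest was HAI1, a protein phosphatase gene induced by abscisic acid, at a distance of 0.56, with 1.04 ± 0.21 in WT and 2.53 ± 0.26 in the libraries labelled trm4b-1 in the authors' deposited table. AT1G58320 followed at 0.67, the osmotin gene OSM34 at 0.72, AT2G15220 at 0.72 and the cation/proton exchanger gene CHX17 at 1.35. The distances rest on 3 values per gene, of which the interaction is the difference of the other two, and no other clock gene could be among them since none is listed in the interaction.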

How the data were processed

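RNA depleted of ribosomal RNA was sequenced from 12 root samples. Trimmomatic, TopHat, limma and build TAIR10 are named, with no versions, per the submitters' processing notes. No source read here states the counting, its strand, the normalization or the filters. From the authors come 5 deposited tables, whose columns per the file headers are log fold change (taken as log2, limma's convention), p-value, adjusted p-value, Storey q-value and exons. No values per sample were used, so depth and precision per sample are unknown.

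Adjusted p times rank over p gave 33602 genes tested. In the 96 genes listed in both paraquat tables and the interaction, the interaction equalled the difference of both, and its variance their sum at 15.3 total degrees of freedom. Standard errors and 95% intervals use these and were tested on simulated data. No p was recomputed.

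Members and lists were chosen with earlier results of these data known. Named are the 10 members, up to 4 changed genes per list and comparison by adjusted p, the genes nearest to LHY, and those between member pairs. All 87 list genes are in the RefSeq table of TAIR10.1. Labels it does not give were replaced by gene IDs. The SHAQKYF search was not run. Sequences and promoter starts are from RefSeq TAIR10.1. Of 38755 introns in the deposited coordinates 97.7% began with GT and ended with AG there, and 0% after a shift of 1 base. Each motif was searched on both strands, and overlapping matches counted. Software was Biopython 1.88, matplotlib 3.10.9, scipy 1.17.1, pandas 2.3.3 and numpy 2.4.6 under Python 3.11.15.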

Additional observations from a re-analysis of the deposited data

How the results depend on the processing

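The 7 morning genes and the 15 and 12 other clock genes called with paraquat in WT and in the libraries labelled trm4b-1 stayed within 1.5 times of those counts at an adjusted p under 0.01, at 0.1, with the Storey q-value, with Holm adjustment and among changes of 1 or more in size on the log2 scale. The interaction count of morning genes went from 0 to 1, LHY, at an adjusted p under 0.1 and also by the Storey q-value under 0.05. With 8 residual degrees of freedom alone, standard errors were 0.309 to 0.759 times those given. LHY's values rebuilt from other contrasts equalled the deposited ones, as contrasts of the same fit must, so this shows nothing about the processing. Without the 50 bases after the start, 6 of the 10 genes held a G-box, and 9 did with 1000 bases before it (15.9% of promoters), a window added after seeing the data. No paired analysis was possible because the tables carry no values per sample, and leaving out replicates was not run for the same reason.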
